A study of Mus musculus with 6 samples.

Results

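The genes described here are 9 of the 16281 genes in a count table from mouse CD8+ T cells: the 3 angiomotins Amot, Amotl1 and Amotl2, the tight junction scaffold Tjp1, and the Hippo pathway genes Stk4, Lats1, Yap1, Wwtr1 and Tead1. They were found by matching their symbols to the table, and all 9 were present. They had been selected on values of the same comparison that is reported below, so their differences between groups are a description: no p is given for them, and whether they passed the thresholds used for all genes is stated only to place them in the table and supports nothing. The study asked how chemical inhibition of the histone demethylase LSD1 changes the transcriptome of CD8+ T cells prepared in culture. Cells came from spleens of C57BL/6 mice carrying the OT1 T cell receptor transgene, Tg(TcraTcrb)1100Mjb. In every sample they were activated with anti-CD3 and anti-CD28 in the presence of IL-2 for 48 h and then expanded in IL-2 for 3 days. Either 0.5 μM GSK2879552, an irreversible LSD1 inhibitor (GSK, 3 samples), or vehicle (Veh, 3 samples) was present during activation and expansion, and poly(A)+ RNA was sequenced in bulk.

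Hippo signalling is a kinase cascade in which the MST kinases activate the LATS kinases, which phosphorylate the coactivators YAP and TAZ and keep them out of the nucleus. In the nucleus, YAP and TAZ act through the TEAD DNA-binding factors. Angiomotins are scaffold proteins of tight junctions and the actin cortex that bind YAP and TAZ and also activate LATS, and ZO-1, the product of Tjp1, links tight junction membrane proteins to actin. The pathway is best known from epithelial growth control, whereas in lymphocytes MST1, the product of Stk4, is known mainly for roles in adhesion, migration and survival.

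Total counts were 18288447 to 18918811 in the Veh samples and 19149909 to 19846720 in the GSK samples, and 11698 genes passed the filter on low counts. Levels are given as CPM, the count scaled to a common library size after TMM scaling, as mean ± SD over the 3 samples of a group (n = 3). Log2 fold changes are GSK minus Veh with their standard errors (SE), from edgeR's quasi-likelihood fit over all tested genes, and a gene was called at an adjusted p below 0.05 together with a fold change above 1.5. The RNA of LSD1 itself, Kdm1a, stood at 92.8 ± 5.45 CPM in Veh against 87.1 ± 3.54 CPM in GSK (log2 fold change -0.092, adjusted p = 0.22). The inhibitor acts on the protein, so this level is no check of the labels. The summed level of 7 CD8 T cell markers was 3089 to 3215 CPM in Veh and 2999 to 3180 CPM in GSK. Of these 7, 2 were higher and 3 lower in GSK by the adjusted p, and 0 passed the fold threshold as well. Of all tested genes, 16.6% were higher and 15.5% lower by the adjusted p. Markers of cell types rich in junctions were low beside these CD8 T cell markers, but not all were low beside the genes described here. Of 8 endothelial markers 7 were in the table, none passed the filter, and their sum was 0.631 to 1.13 CPM in Veh and 0.152 to 0.886 CPM in GSK. The sum of 6 epithelial markers was 19.6 to 30.1 CPM in Veh against 20.9 to 25.4 CPM in GSK. The sum of 6 fibroblast markers was 4.62 to 5.63 and 3.10 to 4.54 CPM, that of 6 myeloid markers 2.89 to 5.00 and 1.36 to 2.83 CPM, and that of 6 B cell markers 5.78 to 8.0 and 5.72 to 6.63 CPM. The myeloid and fibroblast sums were lower in every GSK sample than in any Veh sample. None of these 5 lists had a gene called higher in GSK, beside 2.22% of all tested genes. Few of their genes were tested, though: 5 epithelial, 4 fibroblast, 2 myeloid and 1 B cell marker. The tested B cell marker, Cd79b, had a log2 fold change of -0.41 (SE 0.16). Among the untested, Cd79a had 0 to 3 counts a sample in Veh and 5 to 11 in GSK, and Ms4a1 0 to 2 and 4 to 8. The sum of the NK cell markers was 1.52 to 2.36 CPM in Veh and 2.33 to 3.73 CPM in GSK, ranges that just overlapped, with Klrb1c, the NK marker tested, at a log2 fold change of 0.54 (SE 0.26, adjusted p = 0.13). The sum of Cd4 and Foxp3, markers of CD4 T cells, was 3.47 to 5.00 CPM in Veh against 3.59 to 5.46 CPM in GSK. The part of such cells in the results below was not tested. In bulk RNA, a change in the share of cells that express a gene and a change in RNA per cell cannot be told apart.

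Of the 9 genes, 4 were called, all higher in GSK: Tead1, Tjp1, Amot and Amotl1. Stk4, Lats1 and Yap1 were tested and not called, and Amotl2 and Wwtr1 did not pass the filter. Over all tested genes, 2.22% were called higher and 4.09% lower, and since the genes were selected on this comparison nothing is read from the contrast with those shares. All 3 GSK samples lay above all 3 Veh samples in the 4 called genes and in Lats1, a pattern seen in 23.7% of all tested genes, with 23.0% showing the opposite order. The upstream sequences of the 3 called genes with an entry among RefSeq promoter windows (GRCm38.p6, 250 bases before to 50 after a gene's start) are shown because these genes share a direction. Each is the 250 bases before the start, written 5′ to 3′ on the gene's own strand. Capitals mark the letters TGATTT, which read AAATCA on the other strand and are the core letters bound by GFI1, a repressor that recruits LSD1.
Amot, chrX:145487640-145487889, minus strand: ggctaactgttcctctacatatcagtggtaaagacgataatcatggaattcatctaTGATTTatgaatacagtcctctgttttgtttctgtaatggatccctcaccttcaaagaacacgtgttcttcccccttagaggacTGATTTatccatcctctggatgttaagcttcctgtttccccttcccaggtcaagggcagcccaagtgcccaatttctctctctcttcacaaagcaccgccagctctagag
Amotl1, chr9:14615001-14615250, minus strand: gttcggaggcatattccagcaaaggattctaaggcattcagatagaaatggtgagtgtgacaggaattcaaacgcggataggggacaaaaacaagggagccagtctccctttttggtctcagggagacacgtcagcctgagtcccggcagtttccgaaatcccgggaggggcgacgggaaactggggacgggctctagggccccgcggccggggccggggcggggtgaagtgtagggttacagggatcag
Tjp1, chr7:65371245-65371494, minus strand: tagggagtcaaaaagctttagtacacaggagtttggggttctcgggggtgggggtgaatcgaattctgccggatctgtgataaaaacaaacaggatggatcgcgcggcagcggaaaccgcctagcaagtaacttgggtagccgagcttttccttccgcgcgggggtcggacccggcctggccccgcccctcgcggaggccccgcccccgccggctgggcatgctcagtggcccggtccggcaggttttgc
Searched on both strands, AAATCA occurred in 14% of all 32851 windows. The Amot window held it 2 times, beginning 194 and 110 bases before the start, and the Amotl1 and Tjp1 windows did not hold it. Of the other 5 genes with an entry, Wwtr1, which had fewer counts in GSK, held it 1 time in each of its 2 windows, and Amotl2, Stk4, Lats1 and Yap1 did not hold it. The Amot window had 46.0% G and C and 7 CG dinucleotides, against 61.3% and 21 for Amotl1 and 65.3% and 31 for Tjp1, where the medians over all windows were 52.7% and 7. In these 3 genes the window lies inside the annotated gene region, at an inner start, and the other starts were not analysed. A match of letters is a description of the sequence and not a binding site.

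Tjp1 encodes ZO-1, the tight junction scaffold, and lies on chromosome 7 at 65296165-65527850 (GRCm38.p6, minus strand). Its counts were 403, 350 and 286 in Veh replicates 1 to 3 and 924, 1048 and 925 in GSK replicates 1 to 3. Every GSK sample held more than 2 times the count of the highest Veh sample, and the spread within Veh was wider than within GSK in relative terms. The mean level was 18.6 ± 3.45 CPM in Veh against 49.9 ± 2.70 CPM in GSK. The log2 fold change was 1.43 (SE 0.11), a 2.69-fold higher level, at percentile 99.6 of all tested genes. Veh samples varied with a coefficient of variation of 18.6%, above the 5.37% that counting error alone gives, and GSK samples with 5.41% against 3.22%.

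Tjp3, encoding the related scaffold ZO-3, did not share the difference. It had 306, 314 and 327 counts in Veh and 312, 369 and 286 in GSK, with a log2 fold change of -0.020 (SE 0.097, adjusted p = 0.90). The groups overlapped, and GSK replicates held both the highest and the lowest count. Per kb of exon, Tjp1 was below Tjp3 in Veh, at 2.38 against 4.55 CPM per kb, and above it in GSK, at 6.39 against 4.48. The ratio of Tjp1 to Tjp3 per kb was 0.416 to 0.626 in the Veh samples and 1.35 to 1.54 in the GSK samples, so the order of these genes was opposite in the 2 groups in every sample.

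Amotl1, on chromosome 9 at 14541966-14662974 (minus strand), encodes angiomotin-like 1. Its counts were 122, 147 and 142 in Veh and 234, 236 and 268 in GSK. The groups were far apart compared with the spread within them, and GSK replicate 3 was the highest. The mean level was 7.33 ± 0.636 CPM in Veh and 12.7 ± 1.09 CPM in GSK, a log2 fold change of 0.80 (SE 0.12) or 1.74-fold. The annotated noncoding gene Gm34263, which is not in the table, overlaps Amotl1 over 2827 bases.

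Amot, on chromosome X at 145446424-145505966 (minus strand), encodes angiomotin itself and was read from few counts. It had 14, 14 and 7 counts in Veh and 31, 22 and 26 in GSK. The highest Veh sample lay below the lowest GSK sample, but by only a few reads. The mean level was 0.627 ± 0.224 CPM in Veh and 1.37 ± 0.257 CPM in GSK, with a log2 fold change of 1.12 (SE 0.37), 2.17-fold. Summed over the samples of a group, 35 counts (exact 95% Poisson interval 24.4 to 48.7) stood against 79 (62.5 to 98.5). These intervals, here and below, cover counting error only. Since the genes were selected on this comparison, nothing is read from whether the intervals of the groups meet. The filter counts samples of both groups together. Amot reached the cut-off of 0.525 CPM in 2 of the 3 Veh samples and in all GSK samples. It passed the thresholds in 4 of 11 alternative fits, and not with DESeq2, with the replicate number as a block, or on leaving out any Veh sample or GSK replicate 1 or 3.

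Amotl2, on chromosome 9 at 102717091-102733418 (plus strand), encodes the remaining angiomotin and was near the limit of detection. Its counts were 3, 4 and 0 in Veh and 1, 1 and 3 in GSK. The groups overlapped, and the sums of 7 counts (interval 2.81 to 14.4) and 5 counts (1.62 to 11.7) allow no difference to be detected at this depth. Per kb of exon, Amotl1 made up 88.6% ± 5.10 of the angiomotin sum in Veh and 87.8% ± 1.84 in GSK. That sum was 0.823 CPM per kb in Veh and 1.44 CPM per kb in GSK. The shares overlapped between the groups, and Amotl1 was above Amot per kb in every sample, by 7.28 to 16.9 times in Veh and 6.30 to 8.96 times in GSK.

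**Figure D1:**
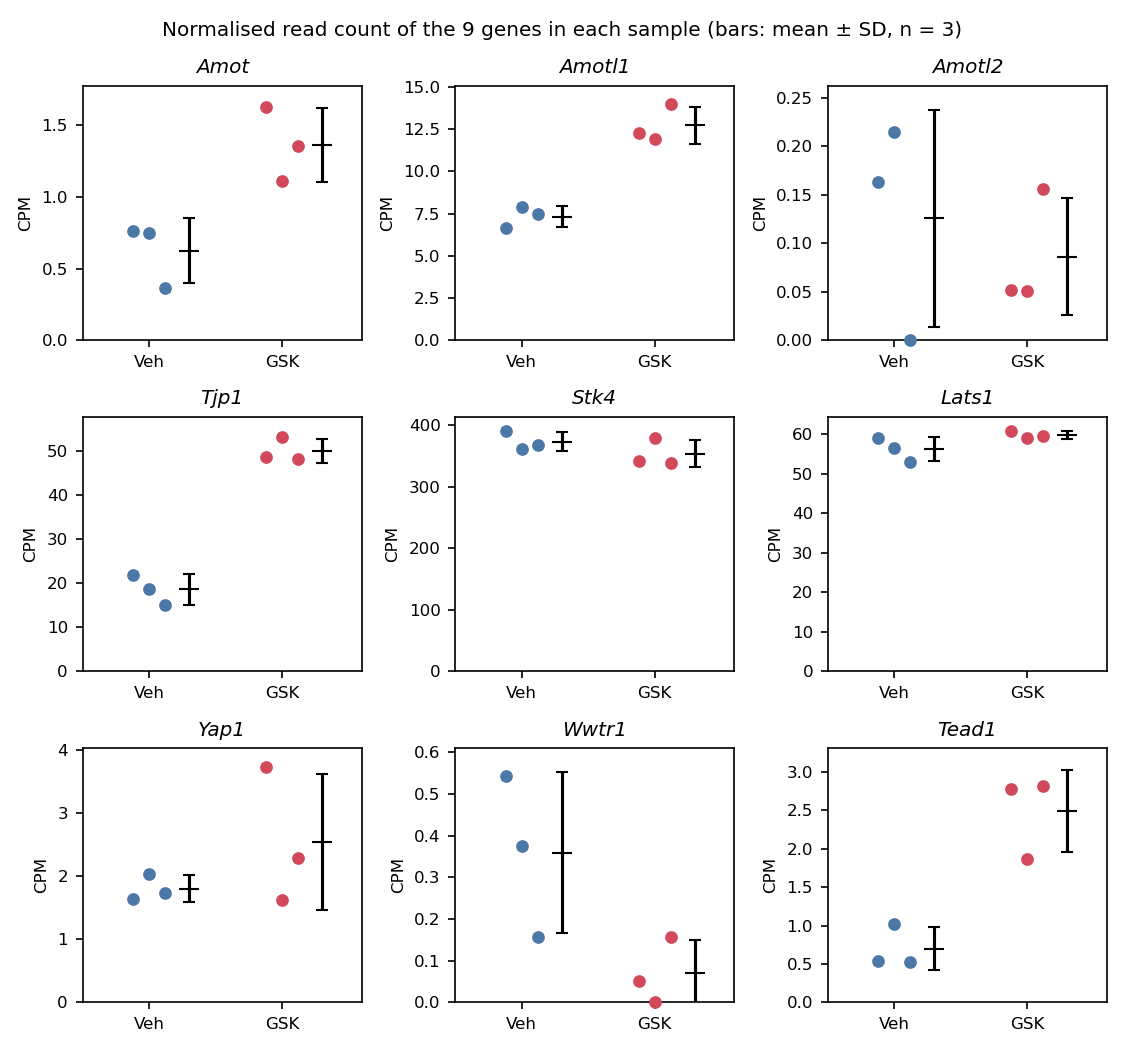
Normalised read count (CPM, linear axes starting at 0) of each of the 9 genes in the 3 Veh samples (blue) and the 3 GSK samples (red); points are samples in the order of their replicate numbers, and black bars give mean ± SD. The groups are apart in Tjp1, Amotl1, Amot and Tead1, nearly touch in Lats1, overlap in Stk4 and Yap1, and rest on at most 10 reads a sample in Amotl2 and Wwtr1.

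Stk4, on chromosome 2 at 164074113-164155524 (plus strand), encodes the kinase MST1 at the head of the cascade and was the most abundant of the 9 genes. Its counts were 7181, 6742 and 6992 in Veh and 6519, 7497 and 6508 in GSK. In CPM the groups overlapped, with Veh replicate 1 the highest at 391, GSK replicate 2 next at 379 and the other two GSK samples the lowest. Means of 373 ± 15.3 CPM in Veh and 354 ± 22.4 CPM in GSK gave a log2 fold change of -0.078 (SE 0.049). Its paralog Stk3, encoding MST2, contributed 1.61% of the MST sum per kb in Veh and 1.97% in GSK, at 6.34 and 7.36 CPM (log2 fold change 0.21, SE 0.17, adjusted p = 0.36).

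Lats1, on chromosome 10 at 7681200-7716461 (plus strand), encodes the kinase that phosphorylates YAP and TAZ. It had 1085, 1054 and 1008 counts in Veh and 1160, 1168 and 1142 in GSK. In CPM the lowest GSK sample, 59.1, lay just above the highest Veh sample, 59.0, so the groups did not overlap but nearly touched. The log2 fold change was 0.092 (SE 0.057), with means of 56.2 ± 3.04 and 59.9 ± 0.933 CPM. Lats2, the paralog, was at 31.3 and 33.1 CPM (log2 fold change 0.083, SE 0.088, adjusted p = 0.51), and Lats1 made up 63.2% of the LATS sum per kb in Veh and 63.4% in GSK. The annotated region of Lats1 overlaps the neighbouring gene Pcmt1 over 138 bases. Per kb, Stk4 stood at 7.97 to 8.64 times Lats1 in the Veh samples and 7.0 to 7.99 times in the GSK samples, ranges that just overlapped.

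Yap1, on chromosome 9 at 7931999-8004638 (minus strand), encodes YAP. Its counts were 30, 38 and 33 in Veh and 71, 32 and 44 in GSK. GSK replicate 1 stood above all other samples, GSK replicate 2 lay within the Veh range, and the groups overlapped. The mean level was 1.80 ± 0.212 CPM in Veh and 2.55 ± 1.08 CPM in GSK, with a log2 fold change of 0.50 (SE 0.31). Without GSK replicate 1 the log2 fold change was 0.12. The coefficient of variation within GSK was 42.3%, against 14.3% from counting error, whereas within Veh it was 11.7% against 17.2%.

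Wwtr1, on chromosome 3 at 57455644-57575910 (minus strand), encodes TAZ. It had 10, 7 and 3 counts in Veh and 1, 0 and 3 in GSK, and was not tested. The lowest Veh sample and the highest GSK sample met at 3 counts, and the other samples were apart. The summed counts were 20 (interval 12.2 to 30.9) in Veh and 4 (1.09 to 10.2) in GSK. These intervals leave out the spread between samples, and no difference is read from them. A fit without the filter gave a log2 fold change of -2.27 (SE 0.91), opposite in sign to that of Yap1. The sum of Yap1 and Wwtr1 was 0.270 ± 0.043 CPM per kb in Veh and 0.290 ± 0.12 in GSK, and Yap1 made up 60.8% to 85.0% of it in Veh and 88.3% to 100% in GSK.

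Tead1, on chromosome 7 at 112679356-112906784 (plus strand), encodes a DNA-binding partner of YAP and TAZ. Its counts were 10, 19 and 10 in Veh and 53, 37 and 54 in GSK. The lowest GSK sample had close to 2 times the count of the highest Veh sample. The mean level was 0.696 ± 0.280 CPM in Veh against 2.49 ± 0.535 CPM in GSK, and the log2 fold change of 1.83 (SE 0.34), 3.55-fold, was the largest of the 7 tested genes. Summed counts were 39 (interval 27.7 to 53.3) and 144 (121 to 170). Even so, Tead1 remained a low gene per kb, at 0.184 CPM per kb in GSK, and its mean level over all samples lay at percentile 1.80 of tested genes.

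The other TEAD genes were at the edge of detection. Tead2 had 0 to 3 counts a sample, Tead3 had 1 to 9 and Tead4 had 0 to 2, and none passed the filter. Tead1 made up 33.7% to 48.7% of the TEAD sum per kb in the Veh samples and 80.6% to 91.8% in the GSK samples. The sum itself was 0.122 ± 0.044 CPM per kb in Veh and 0.209 ± 0.032 in GSK. Because the paralogs rest on single reads, these shares are imprecise.

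The letters GGAATG, or CATTCC on the other strand, are the core bound by TEAD factors, and they were present in 14.7% of all promoter windows. The windows of 3 of the 8 genes with an entry held them, namely Amotl2, Yap1 and Wwtr1, none of which was called. They are shown with 20 bases on each side, on the gene's strand, with the TEAD letters in capitals.
Amotl2, chr9:102717719-102717764, plus strand: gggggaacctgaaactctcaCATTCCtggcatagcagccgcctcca
Yap1, chr9:8004712-8004757, minus strand: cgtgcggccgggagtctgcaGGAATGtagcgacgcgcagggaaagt
Wwtr1, chr3:57576021-57576066, minus strand: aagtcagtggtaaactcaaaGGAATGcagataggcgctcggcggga
They begin 65 bases before the start in Amotl2 and 141 in Yap1. The Amotl2 start is an inner one, and its window (102717554-102717853) lies inside the annotated gene region. Wwtr1 has 2 windows with different starts, and the letters begin 136 bases before the first and 170 before the second. Of the called genes with an entry, Amot, Amotl1 and Tjp1, none held these letters in its window.

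**Figure D2:**
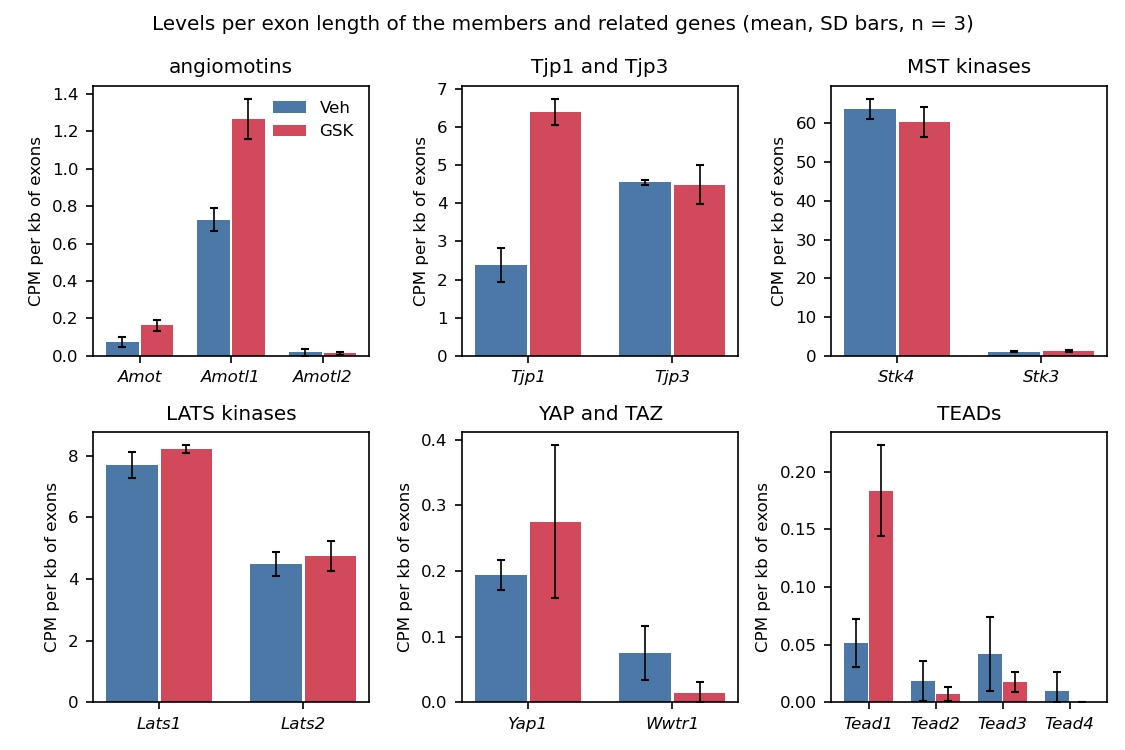
Mean level in CPM per kb of exon (bars from 0, error bars SD, n = 3) of the 9 genes and related genes in Veh (blue) and GSK (red), by family. Tjp1 went from 2.38 to 6.39 beside Tjp3 at 4.55 and 4.48, and Stk4 was far above Stk3 in both groups. Each panel has its own scale.

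Ordered by level per kb of exon, the 9 genes spanned more than 3 orders of magnitude. In Veh the order was Stk4 at 63.7 CPM per kb, Lats1 at 7.70, Tjp1 at 2.38, Amotl1 at 0.728, Yap1 at 0.195, Wwtr1 at 0.0751, Amot at 0.0746, Tead1 at 0.0513 and Amotl2 at 0.0200. The ranges of neighbours did not overlap, except that Wwtr1 and Amot, and Amot and Tead1, could not be ordered. In GSK the first 5 places were the same, with Stk4 at 60.4, Lats1 at 8.20, Tjp1 at 6.39, Amotl1 at 1.27 and Yap1 at 0.275 CPM per kb. Tead1 at 0.184 and Amot at 0.163 came next, and Yap1, Tead1 and Amot overlapped with their neighbours. Wwtr1 at 0.0146 and Amotl2 at 0.0138 were last and overlapped. Tjp1 thus came closer to Lats1. The place of Wwtr1 is not settled in either group, since its range overlapped that of the next gene in both and it had few counts.

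**Figure D3:**
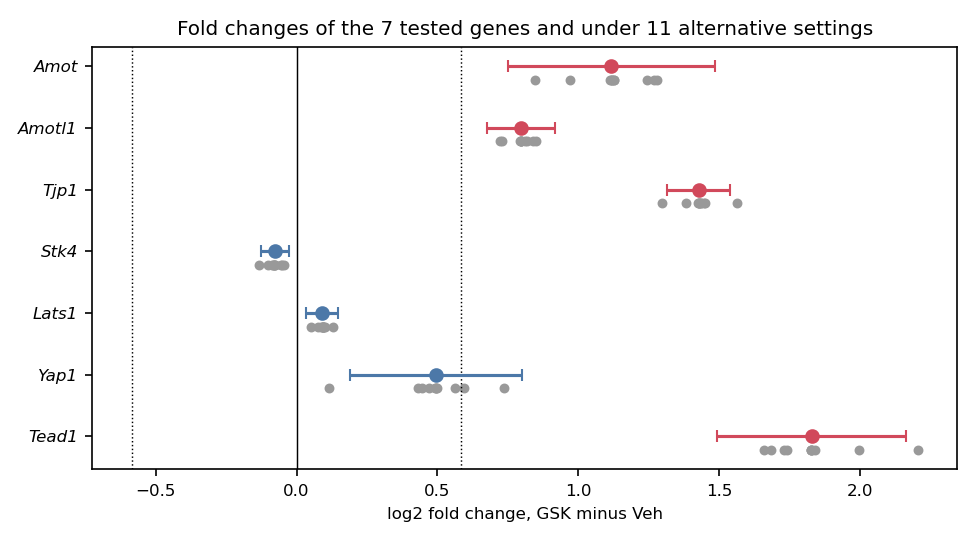
Log2 fold change (GSK minus Veh) of the 7 tested genes, with SE bars, in red for the 4 called genes and blue for the other 3; grey points are the values under 11 alternative fits, and dotted lines mark a 1.5-fold change. Tead1 (1.66 to 2.20), Tjp1 (1.30 to 1.56) and Amotl1 (0.72 to 0.85) stayed beyond the line throughout, whereas Yap1 ranged from 0.12 to 0.74.

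The log2 fold change of Stk4 ranged from -0.13 to -0.043 and that of Lats1 from 0.051 to 0.13. Stretches of 31 bases were compared with annotated transcripts of other genes in the same orientation. Shared stretches made up 0% of Tjp1 and Stk4 and at most 1.89%, in Yap1, of any of the 9. Copies outside those transcripts or on the opposite strand were not searched. How many reads could be split between genes was therefore not determined. The annotated pseudogene Gm16016 overlaps Wwtr1 over 2520 bases and is not in the table.

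The rest of the pathway was described from 6 lists that hold none of the 9 genes, with 136 genes listed, 122 in the table and 85 tested. Of the 85, 6 passed the adjusted p higher in GSK (7.06%) and 15 lower (17.6%), beside 16.6% higher and 15.5% lower of all tested genes. With the fold threshold, 1 was higher and 4 were lower. Their median log2 fold change was -0.032, that of all tested genes -0.0039. The share lower was close to that of all tested genes, and the share higher was smaller than that of all tested genes. The log2 fold changes of the 85 ranged from -1.01 to 0.79. This range depends on the lists: tested genes assigned to the Hippo pathway in the deposited table, described at the end, ranged from -1.62 to 1.71. The 9 genes were selected on this comparison, so nothing is read from setting their values against these ranges. Adjusted p-values below come from the quasi-likelihood test of edgeR, with the Benjamini-Hochberg method applied over all tested genes.

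The kinase module, with the MST and LATS kinases' partners, upstream kinases and STRIPAK subunits, held 32 tested genes, of which 2 were higher, 8 lower and 22 did not pass. The 2 higher genes became 0 with DESeq2, with the replicate block and without Veh replicate 2, Veh replicate 3, GSK replicate 1 or GSK replicate 3, and the 8 lower genes became 4 without GSK replicate 1. None of the 10 changed by more than 1.5-fold, and the list's median was -0.035. Stk38, encoding the LATS-related kinase NDR1, fell from 180 to 134 CPM (log2 fold change -0.42, SE 0.064, adjusted p = 5.3e-04). Map4k2 fell from 293 to 225 CPM (-0.38, SE 0.067, adjusted p = 0.0018) and Map4k4 from 257 to 217 CPM (-0.24, SE 0.044, adjusted p = 0.0014), both MAP4 kinases that can act on LATS beside the MST kinases. Sav1, the scaffold of MST1, fell from 57.6 to 48.2 CPM (-0.26, SE 0.065, adjusted p = 0.0099), while Nf2, the upstream tumour suppressor merlin, was at 88.2 and 89.1 CPM (adjusted p = 0.84). Beside Tead1, Vgll4 was the only tested gene of the list of TEADs and their cofactors. It encodes a protein that competes with YAP for TEAD binding, and it fell from 61.2 to 51.6 CPM (-0.25, SE 0.057, adjusted p = 0.0058).

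Of 19 genes listed as YAP and TAZ targets in other cell types, 9 were tested, with 1 higher, 2 lower and 6 not past the test (median -0.24). The classical targets were hardly present, with Ccn1 at 0 to 3 counts a sample, Ccn2 at 0 to 6 and Ankrd1 at 0 to 2. Nt5e, encoding the ectonucleotidase CD73, was higher in GSK at 42.2 against 24.9 CPM (0.76, SE 0.20, adjusted p = 0.037), and it passed in 7 of 11 alternative fits, with adjusted p from 0.0086 to 0.11. Asap1, encoding an ARF GTPase activator, fell from 59.0 to 35.4 CPM (-0.74, SE 0.083, adjusted p = 7e-05). Axl, a receptor tyrosine kinase, fell from 36.9 to 27.3 CPM (-0.44, SE 0.076, adjusted p = 9.5e-04). Listed targets thus passed the test in both directions.

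Of 53 tight junction genes listed beside Tjp1, 41 were in the table and 24 tested, with 1 higher, 3 lower and 20 not past the test (median -0.032). Cldn12, a claudin, was at 6.95 CPM in Veh and 4.44 in GSK (-0.65, SE 0.17, adjusted p = 0.012), and Pard6g, a polarity adaptor, at 4.03 and 2.50 (-0.69, SE 0.20, adjusted p = 0.019). Cldn12 missed the threshold without Veh replicate 2 (adjusted p up to 0.063), and Pard6g without Veh replicate 3 or GSK replicate 1 (up to 0.072). Cldnd1, a claudin-like protein, went from 129 to 165 CPM (0.35, SE 0.072, adjusted p = 0.0043). Ocln, encoding the junction protein occludin, had 3 to 13 counts a sample and was not tested. None of these 24 genes was called higher with the fold threshold, whereas the wider pathway assignment in the deposited table held 1 such gene, Src.

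The 9 listed regulators of angiomotin stability and phosphorylation were all tested, with 2 higher, 0 lower and 7 not past the test. Tnks2, a tankyrase that marks angiomotins for degradation, went from 233 to 259 CPM (0.15, SE 0.039, adjusted p = 0.010), its adjusted p reaching 0.053 without GSK replicate 1. Nedd4, a ubiquitin ligase, went from 161 to 177 CPM (0.14, SE 0.045, adjusted p = 0.033) and passed in 5 of 11 alternative fits, with adjusted p up to 0.14. Tnks had a log2 fold change of -0.15 (SE 0.058, adjusted p = 0.069). Of 12 adherens junction genes 10 were tested, with 0 higher and 1 lower. That gene was Cdh1, encoding E-cadherin, at 6.66 CPM in Veh and 4.01 in GSK (-0.73, SE 0.16, adjusted p = 0.0046). Jup, encoding plakoglobin (0.79, SE 0.30, adjusted p = 0.056), and Vcl, encoding vinculin (-0.20, SE 0.076, adjusted p = 0.064), did not pass.

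**Figure D4:**
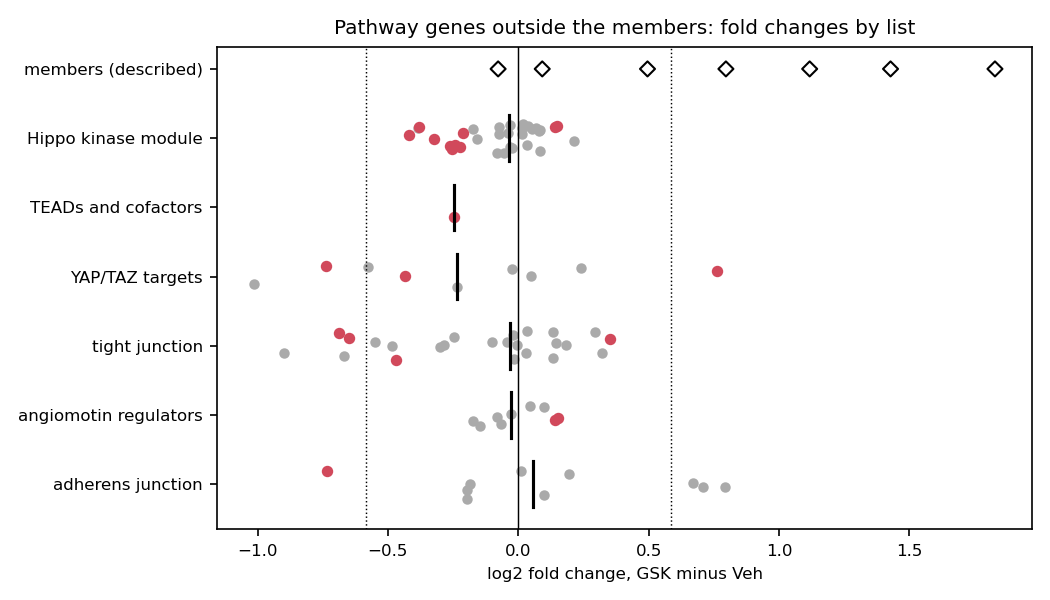
Log2 fold change (GSK minus Veh) of each tested gene of the 6 pathway lists, in red where the adjusted p was below 0.05; black ticks are list medians, dotted lines a 1.5-fold change, and open diamonds the 7 tested genes of the main set, given without a test. List medians lie between -0.25 and 0.056, and only Nt5e is red beyond the upper line.

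By position, the nearest tested gene on each side of the 9 genes was examined, a choice made after the values were seen. Of these 18 neighbours, 0 were called higher, 2 lower and 16 not called by edgeR, beside 2.22% higher and 4.09% lower of all tested genes. Beside Tjp1, Nsmce3 and Tarsl2 had log2 fold changes of 0.027 (SE 0.11) and 0.10 (SE 0.11), at gaps of 423 and 117 kb. Beside Amotl1, Cwc15 at 31.3 kb had 0.032 (SE 0.044) and Piwil4 at 38.8 kb had -0.21 (SE 0.26). Beside Tead1, Mical2 at 324 kb was lower (-0.64, SE 0.21, adjusted p = 0.037). Beside Stk4, Sdc4 at 269 kb was lower (-0.78, SE 0.21, adjusted p = 0.014).

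The pattern of Tead1, the tested gene of the set with the largest fold change, was compared with all 10177 other tested genes of mean count at least 50 by the mean absolute difference of centred log2 CPM over the 6 samples. The 5 nearest were Gorasp1 at 0.196, Il10 at 0.196, Acvr1 at 0.215, 2510009E07Rik at 0.235 and Lonrf3 at 0.251, where the median gene was at 0.862. Gorasp1 was at 2.79 CPM in Veh and 8.90 in GSK, Il10 at 2.94 and 13.2, and Acvr1 at 1.96 and 5.31. A likeness over 6 samples in 2 groups mainly reflects a similar difference between the groups.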

How the data were processed

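The deposited table holds whole-number read counts per gene. According to the labels and the study's methods, the authors enriched poly(A)+ RNA, made stranded TruSeq libraries, trimmed reads with Trimmomatic, aligned them to GRCm38 with HISAT2 2.1.0 and counted with HTSeq 0.11.2. The submitters' processing notes also name Cufflinks 2.2.1 and DESeq2 1.22.2. The strand setting of the counting is not given in the sources used here, so reads of overlapping genes may have been shared between them. Samples were grouped by their titles. The study's text names 3 separate OT1 mice, and a figure legend gives 3 mice per group. The labels do not tie samples to mice or say whether samples of the same number share a mouse. The p-values therefore measure the spread between these samples. No pair of replicates of a group agreed within counting noise (chi-square per degree of freedom 4.07 to 9.38).

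From the deposited counts, genes were filtered with filterByExpr (minimum count 10), scaled by TMM and tested with edgeR 4.0.16 in R 4.3.3 (robust quasi-likelihood fit, Benjamini-Hochberg over 11698 genes). The fit was tested on simulated data. CPM per kb used summed exon lengths of GENCODE M21, and coordinates and promoter windows came from RefSeq GRCm38.p6. Fold changes of genes with few counts depend on the fit's shrinkage. Columns of annotation in the table were used for gene identifiers and pathway names.

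The 9 genes and all lists were chosen with earlier results of these data known. Besides the 9 genes, the text names from each list every called gene, filled up to 3 by the smallest p, the 5 genes nearest in pattern to Tead1, and genes overlapping a member. The paralogs Tjp3, Stk3, Lats2 and Tead2 to Tead4, the list genes Sav1, Nf2, Ccn1, Ccn2, Ankrd1 and Ocln, and Kdm1a and Gfi1 are named outside that rule, after their values were seen. The same holds for the marker genes Klrb1c, Cd79a, Cd79b and Ms4a1. Alternatives were DESeq2 1.42.0, RLE size factors, no filter, a filter at 1 CPM in 3 samples, a replicate block, leaving out each sample, and the adjusted p alone.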

Additional observations from a re-analysis of the deposited data

How the results depend on the processing

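All 7 tested genes of the set kept the sign of their fold change under the 11 alternative fits, which is a description, since they were selected on this comparison. The number called was 4 and fell to 3 where Amot lost its call (DESeq2, the replicate block, and leaving out any Veh sample or GSK replicate 1 or 3). On the adjusted p alone, the table had 1941 genes higher and 1819 lower, in place of 260 and 479, and 4 genes of the set passed, as in the main result. Among the pathway list genes, 6 higher and 15 lower in the main fit became 2 to 7 higher and 9 to 15 lower when a sample was left out, with 2 higher without Veh replicate 2, GSK replicate 1 or GSK replicate 3, 3 without Veh replicate 3, and 9 lower without GSK replicate 1. The cause was not tested. Depth limits Amotl2, Wwtr1, Amot, Tead1 and Yap1, which had at most 71 counts in any sample.

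With the replicate number as a block, 253 genes were called higher and 447 lower, and 3 pathway list genes passed higher in place of 6. Samples of the same number did not deviate together (correlations of deviations -0.052, -0.081 and 0.16), so the numbers are not shown to pair the samples.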

Other observations

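The deposited table carries pathway names, and genes it assigns to the Hippo and tight junction pathways were counted without the 9 genes described above, a choice made after the file was seen. Of 141 Hippo genes 92 were tested, 13 higher and 19 lower by the adjusted p of edgeR's quasi-likelihood test, beside 16.6% higher and 15.5% lower of all tested genes, with a median log2 fold change of -0.0029. These counts are near that background. With the fold threshold 1 was higher and 6 lower. The gene higher in GSK was Dlg5, a scaffold of cell polarity, at 5.41 CPM against 1.65 in Veh (log2 fold change 1.71, SE 0.26, adjusted p = 4.5e-04). The 6 lower genes were Tcf7, Fzd7, Wnt10b, Dlg4, Cdh1 and Pard6g, named after their values were seen. Tcf7, encoding the transcription factor TCF1, fell from 299.6 to 124 CPM (-1.28, SE 0.21, adjusted p = 0.012), Fzd7, a Wnt receptor, from 7.59 to 2.47 CPM (-1.62, SE 0.19, adjusted p = 6.8e-05), and Wnt10b, a Wnt ligand, from 9.89 to 3.37 CPM (-1.56, SE 0.27, adjusted p = 0.0024).

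Of 141 tight junction genes in the deposited assignment 114 were tested, 18 higher and 13 lower, also near that background, with a median log2 fold change of 0.0023. With the fold threshold 1 was higher, Src, a tyrosine kinase, at 2.63 against 1.42 CPM (0.88, SE 0.28, adjusted p = 0.027), and 3 were lower, Igsf5, Pard6g and Prkab2. Gfi1, encoding the repressor whose core letters were searched for above, was at 45.0 ± 3.32 CPM in Veh against 113 ± 7.45 CPM in GSK (mean ± SD, n = 3), with a log2 fold change of 1.33 (SE 0.066).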
